A study of Homo sapiens with 2 samples.

Results

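The 10 genes described here encode secreted factors that act on blood vessels. They were chosen by name from a table of 37364 genes, with earlier results of these data known. The VEGF ligands are VEGFA, VEGFB, VEGFC and PGF, and the endothelins are EDN1 and EDN2. The others are the growth factors FGF2 and PDGFA, the lipase inhibitor ANGPTL4 and the angiogenesis inhibitor THBS1. All 10 were in the table, and 9 reached a mean of 1 RPKM (reads per kilobase of transcript and of library depth), the level from which a gene is called measured here. RNA was taken from D407 cells, a human line that the labels call adult retinal pigment epithelium (RPE), grown in medium with serum. There was 1 library of cells given clusterin, a secreted chaperone glycoprotein, and 1 control library, so every difference is between 2 libraries and has no replicate check. The dose and time of the treatment, and what the control cells received, are not given in the sources used here. Both libraries came from this 1 line.

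VEGF ligands bind tyrosine kinase receptors on endothelial cells, with neuropilins as co-receptors, and drive vessel growth and leakage. The RPE lies between the photoreceptors and the choroidal vessels, and in the eye it is known as a source of VEGF that keeps those vessels open, with excess VEGF a feature of neovascular macular degeneration. Endothelins are vasoconstrictor peptides cut from longer precursors, FGF2 and PDGF ligands act on receptor kinases of mural, fibroblast and endothelial cells, and thrombospondin 1 restrains vessel growth.

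The libraries held 38236988 reads (control) and 33177133 (clusterin), as recovered from the deposited values. Of the 37364 genes, 13244 were measured, and their median log2((clusterin RPKM + 1)/(control RPKM + 1)) was -0.06. That scale, which understates the fold of low genes, is called the log2 difference below. Markers of the labelled cell type were few: of 14 RPE markers found, 3 were measured (MITF, STRA6 and BEST1), while RPE65, RLBP1 and 6 more were listed at 0 in both. Of 12 endothelial markers, 6 were listed at 0 and 1 was measured, ENG, at 2.83 RPKM without clusterin and 2.52 RPKM with it. CDH5 lay just under the measured level, at 0.969 and 0.927 RPKM from 153 and 127 reads. PECAM1 was near absent, at 0.0352 and 0.0338 RPKM. The summed level was 4.41 and 3.98 RPKM, mostly from ENG. Of 9 leukocyte and platelet markers, 5 were listed at 0 (summed level 6.65 and 6.44 RPKM). Of 10 fibroblast and mural markers, 3 were measured (summed level 75.2 and 73.5 RPKM). Most of that sum came from LUM and DCN, while COL1A2, COL3A1 and DES were near absent and PDGFRA was listed at 0. The simple epithelium markers had the highest summed level of the marker lists, 985 RPKM without clusterin and 1003 RPKM with it. Of 6 such markers, 4 were measured (KRT7, KRT18, KRT8 and KRT19), while CDH1 was near absent and EPCAM was listed at 0. A gene listed at 0 may be a failed estimate in this table, so zeros are given as listed.

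VEGFA was by far the highest of the 10 genes and differed little between the libraries. ANGPTL4, FGF2 and VEGFB followed at between 5 and 13 RPKM, and the rest lay below 5 RPKM in both libraries. In the control, the 95% Poisson intervals of the levels, which cover counting error only, overlapped for 2 neighbouring pairs in that order, EDN2 with PDGFA and THBS1 with VEGFC. In the clusterin library, EDN2 stood apart from PDGFA and its interval reached that of VEGFB, while THBS1 with VEGFC and VEGFC with EDN1 overlapped. The order of the 10 genes was the same in both libraries.

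**Figure D1:**
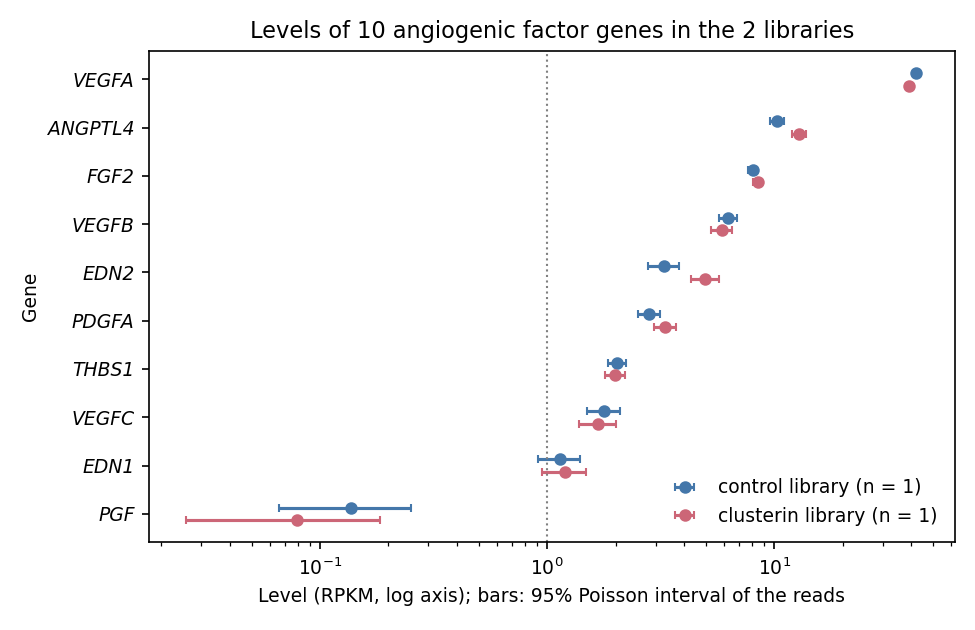
Level of each of the 10 genes (RPKM, log axis) in the control and the clusterin library, 1 library each, with 95% Poisson intervals of the recovered reads; the dotted line marks 1 RPKM. PGF lies below 1 RPKM, and the intervals of the 2 libraries do not overlap for EDN2 and ANGPTL4, whose clusterin points lie to the right, and for VEGFA, whose clusterin point lies to the left.

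VEGFA, the main VEGF of vessel growth (chromosome 6, 43770209 to 43786487, GRCh38, plus strand), stood at 41.8 RPKM without clusterin and 39.0 RPKM with it, from 5857 and 4741 reads. The clusterin library was the lower one, with an RPKM ratio of 0.933 and a 95% counting interval of 0.898 to 0.969. That interval lies below 1 but holds 0.953, the median RPKM ratio of the 13178 measured genes whose reads were recovered. The log2 difference was -0.10, and among 1249 genes with between 0.5 and 2 times the reads of VEGFA, 830 lay at least as far from the median ratio. VEGFA therefore sat within the offset that most genes share. In RNA from whole cultures, as here, fewer cells that make a transcript and less of it per cell cannot be told apart.

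VEGFB, a ligand of FLT1 linked to lipid handling and cell survival, stood at 6.26 RPKM without clusterin and 5.86 RPKM with it, a ratio of 0.936 (0.811 to 1.08). VEGFC, the lymphatic growth factor, was at 1.77 and 1.67 RPKM, a ratio of 0.940 (0.728 to 1.21). PGF, placental growth factor, was at 0.137 and 0.0789 RPKM from 10 and 5 reads, a ratio of 0.576 (0.155 to 1.85), so no difference was detectable at this depth. All 4 VEGF ligands thus had the lower value in the clusterin library, as did 70.2% of all measured genes; after quantile normalization the difference of VEGFC was near 0, at -0.0007 on the log2 scale. VEGFA made up 83.7% of the summed RPKM of these 4 ligands in either library, the sum being 50.01 RPKM without clusterin and 46.6 RPKM with it.

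Of the 9 measured members, EDN2 was the one furthest apart. Endothelin 2 (chromosome 1, 41478775 to 41484683, GRCh38, minus strand), a vasoconstrictor peptide, stood at 3.26 RPKM without clusterin and 4.97 RPKM with it, from 155 and 205 reads. The clusterin level was 1.52 times that of the control (1.23 to 1.89), and the log2 difference was 0.49. Of 3313 genes with between 0.5 and 2 times its reads, 7 had a ratio as high as EDN2 and 23 lay as far from the median ratio in either direction. Among all measured genes, 83 (0.627%) had a log2 difference at least as high.

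EDN1, endothelin 1, the family's best known vasoconstrictor (chromosome 6), was lower in level and nearly alike in the libraries, at 1.13 and 1.19 RPKM from 91 and 83 reads. Its ratio was 1.05 (0.771 to 1.43) and its log2 difference 0.04. EDN2 stood at 2.88 times the level of EDN1 in the control and 4.17 times in the clusterin library. The second of these was 1.45 times the first, with a 95% interval of 0.992 to 2.12, so the difference between the 2 endothelins was not resolved by these reads. Together they summed to 4.39 RPKM without clusterin and 6.16 RPKM with it, of which EDN2 gave 74.2% and 80.7%. EDN3, the other endothelin gene, was listed at 0 in both libraries.

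ANGPTL4, a secreted inhibitor of lipoprotein lipase that hypoxia and PPAR factors induce (chromosome 19, 8364127 to 8374375, GRCh38, plus strand), stood at 10.3 RPKM without clusterin and 12.8 RPKM with it, from 748 and 811 reads. The clusterin library was higher, with a ratio of 1.2496 (1.13 to 1.38) and a log2 difference of 0.30. Of 5355 genes with between 0.5 and 2 times its reads, 21 had a ratio as high and 27 lay as far from the median ratio. Set against VEGFA, another hypoxia-induced gene, ANGPTL4 stood at 0.246 times its level in the control and 0.329 times in the clusterin library, a ratio of 1.34 between the libraries (1.202 to 1.49).

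The sequence before the start of the 2 measured members furthest apart is shown, with a stretch of EDN1 for comparison, from RefSeq promoter windows on GRCh38.p14 (250 bases before to 50 after each annotated start). Capitals mark TATAA on the gene's own strand, the core of a TATA box, and ACGTG on either strand (CACGT on the gene's strand when the match is opposite), the core letters of a hypoxia response element. Each is written 5′ to 3′ on the gene's strand. EDN2 is at chr1:41484684-41484933 (minus), ANGPTL4 at chr19:8363905-8364154 (plus) and EDN1 at chr6:12290318-12290347 (plus). The first 2 are the 250 bases before the start, and the EDN1 stretch is 30 bases around TATAA before 1 of its 3 annotated starts, shown because that start holds the match.
EDN2: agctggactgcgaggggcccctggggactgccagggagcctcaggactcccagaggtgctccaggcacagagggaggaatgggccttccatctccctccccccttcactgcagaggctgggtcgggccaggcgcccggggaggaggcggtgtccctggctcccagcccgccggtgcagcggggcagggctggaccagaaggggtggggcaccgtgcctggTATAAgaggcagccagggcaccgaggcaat
ANGPTL4: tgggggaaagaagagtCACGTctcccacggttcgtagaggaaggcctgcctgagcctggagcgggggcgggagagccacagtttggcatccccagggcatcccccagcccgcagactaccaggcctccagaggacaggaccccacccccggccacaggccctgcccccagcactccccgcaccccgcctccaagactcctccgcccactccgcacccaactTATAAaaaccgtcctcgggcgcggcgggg
EDN1: ataggggttcaaTATAAaaagccggcagag

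The TATAA match begins 30 bases before the start in EDN2, 29 in ANGPTL4 and 31 in EDN1. Promoter windows were matched for 9 of the 10 members, all but VEGFA (15 windows, since some genes have several starts). TATAA on the gene's strand beginning 45 to 16 bases before a start was found in 4 of the 15 windows, 1 each of ANGPTL4, EDN1, EDN2 and PDGFA, and in 4.095% of all 35116 windows of 300 bases. VEGFB, VEGFC, FGF2, PGF and THBS1 had none there. On the log2 scale, the differences of the 4 genes with the match ran from 0.04 (EDN1) to 0.49 (EDN2). Those of the 5 without it ran from -0.08 (VEGFB) to 0.06 (FGF2), so the ranges overlap. VEGFA, at -0.10, is in neither group, and PGF, with 15 reads in all, is below the measured level. Whether the match bears on these levels was not tested. Searched on both strands of the whole window, ACGTG was in 3 of the 15 windows, of ANGPTL4 and EDN1 (21.4% of all windows), the AP-1 letters TGANTCA were in 0 (7.71%), and the GC box core GGGCGG was in 12, from every gene with a window but EDN2 (44.95%). No 2 of these motifs shared letters in the 15 windows, though the TATAA match of ANGPTL4 overlaps a match on the other strand and GGGCGG matches overlap each other in PDGFA and VEGFB. These matches describe letters only and are no evidence of binding.

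PDGFA, the A chain of platelet-derived growth factor, stood at 2.81 RPKM without clusterin and 3.30 RPKM with it, from 302 and 307 reads. Its ratio was 1.17 (0.996 to 1.38), with a log2 difference of 0.17, and 186 of 4390 genes with between 0.5 and 2 times its reads (4.24%) were as high. The interval included 1 but lay above the median ratio of 0.953. FLJ44511, a gene on the opposite strand that shares 278 bases with PDGFA, stood at 1.33 and 0.911 RPKM, the other direction; without a stated strand, reads in that stretch could belong to either gene.

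FGF2, basic fibroblast growth factor, which is released without a signal peptide, stood at 8.03 RPKM without clusterin and 8.44 RPKM with it, from 2079 and 1896 reads. Its ratio was 1.05 (0.987 to 1.12), which included 1 and lay above the median ratio, and its log2 difference was 0.06. Among genes of like depth, 294 of 3706 (7.93%) were as high. NUDT6, a hydrolase gene on the opposite strand, shares 5592 bases with FGF2; its level was 8.55 RPKM without clusterin and 9.55 RPKM with it, and its ratio 1.12 (0.976 to 1.28). As the strand used in counting is not given in the sources used here, reads of FGF2 and NUDT6 in the shared stretch cannot be told apart.

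THBS1, thrombospondin 1, a matrix glycoprotein that inhibits vessel growth through CD36 and CD47, stood at 2.03 RPKM without clusterin and 1.99 RPKM with it. The ratio of 0.983 (0.856 to 1.13) included both 1 and the median ratio, and the log2 difference was -0.02. That sign flipped, to 0.03, when the control was rescaled to the median ratio and, to 0.05, after quantile normalization. Its reads are less certain than those of the other members, since 5 transcript lengths matched the deposited values, giving between 381 and 517 control reads. VEGFA stood at 20.6 times the level of THBS1 in the control and 19.6 times in the clusterin library, a ratio of 0.949 between the libraries (0.822 to 1.096).

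**Figure D2:**
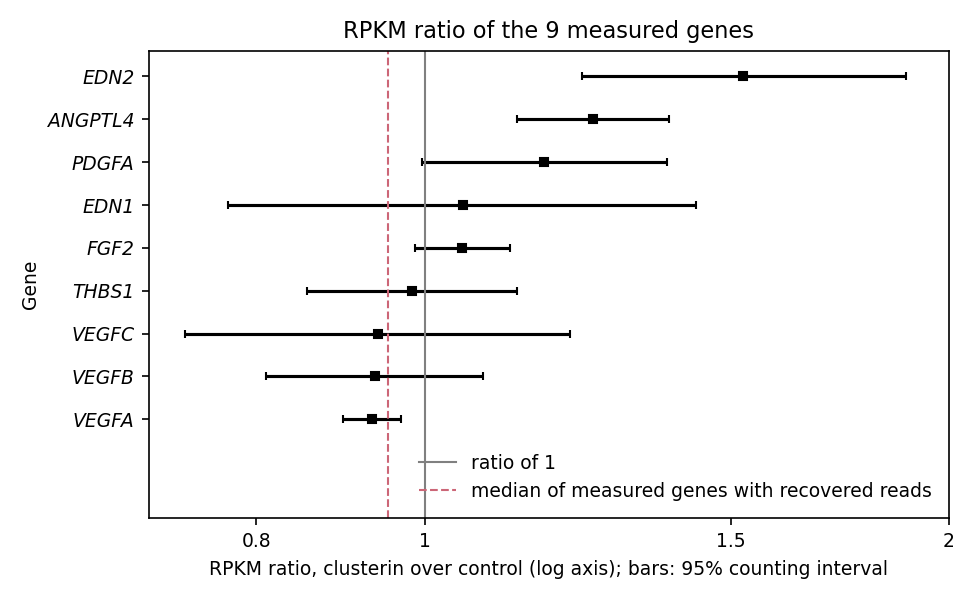
RPKM ratio of clusterin over control (log axis) for the 9 measured genes, with 95% exact counting intervals; the solid line marks a ratio of 1 and the dashed line the median of measured genes with recovered reads, 0.953. EDN2 and ANGPTL4 lie above both lines with their whole intervals, PDGFA and FGF2 lie above the dashed line only, and VEGFA lies below 1 with an interval that holds the dashed line.

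None of the 9 measured members was 2-fold apart, against 0.219% of all measured genes. At a log2 difference of 0.25 (1.19-fold), 2 members were higher in the clusterin library, EDN2 and ANGPTL4, against 2.52% of measured genes, and 0 were lower, against 6.37%. Among genes with a mean of 1 to 10 RPKM, where EDN2 lies, 2.91% were higher by that size. Above 0 lay 5 of the 9 members, against 29.8% of genes, 7 lay above the median of all genes, and their own median was 0.04, against -0.06 over all measured genes. That median was -0.0086 over the 4 members that average 5 RPKM or more, and ran from 0.01 (no filter on level, or a pseudocount of 5 RPKM) to 0.10 (quantile normalization) under the other settings tried. By counting intervals, 2 members lay above a ratio of 1 (4.33% of genes) and 1 below it, VEGFA (25.8%). Against the median ratio in place of 1, 4 members lay above, FGF2 and PDGFA being the added ones (11.8% of genes), and 0 below (10.4%). As the members were chosen with earlier results of these data known, these counts describe the list and give no independent support.

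Of the 9 measured members, 3 had a q under 0.05 in the authors' deposited table, against 16.6% of measured genes. The 2 higher ones compare with 1.99% of genes and the 1 lower one with 14.6%. These were EDN2 with a q of 0.00179, ANGPTL4 with 0.00041 and VEGFA with 0.00665. The deposited q was 0.201 for PDGFA and 0.333 for FGF2. Those q-values compare 2 libraries and take account of read sampling only. The spread between the libraries was wider than that at each depth looked at. Its robust SD on the log2 scale was 1.45 times the counting error at 300 to 1000 reads, where EDN2 and PDGFA lie. It was 1.598 times at 1000 to 3000 reads, where ANGPTL4 lies, and 2.01 times at 3000 to 10000 reads, where FGF2 lies. At 10000 to 30000 reads, where VEGFA lies, it was 2.85 times. Counting intervals are therefore too narrow as a measure of how 2 libraries differ. This includes the intervals that set FGF2 and PDGFA above the median ratio and those of EDN2 and ANGPTL4. It also includes the interval that sets VEGFA below 1, at the depth where the excess was largest.

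**Figure D3:**
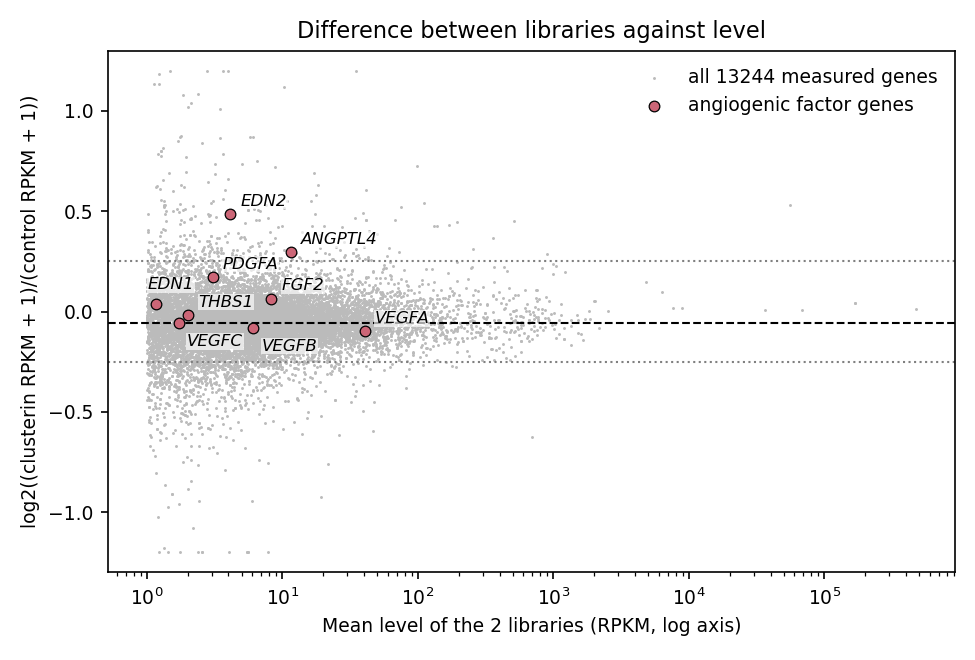
Log2 difference between the libraries against mean level (RPKM, log axis) for all 13244 measured genes (grey) and the 9 measured angiogenic factor genes (red, named); the dashed line is the median of all genes, dotted lines mark differences of 0.25 either way, and 17 genes beyond 1.2 are drawn at that value. EDN2 and ANGPTL4 lie above the upper dotted line and the other 7 lie between the dotted lines.

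The receptors were mostly listed at 0 or lay at low levels, and a listed 0 may be a failed estimate. FLT1, KDR and FLT4, the 3 VEGF receptor kinases, were listed at 0 in both libraries, while the co-receptors NRP1 (2.16 and 1.90 RPKM in control and clusterin) and NRP2 (2.83 and 2.65) were measured. Of the endothelin receptors, EDNRA was at 0.889 and 1.002 RPKM, just under the measured level, with a ratio of 1.13 (0.886 to 1.44), and EDNRB was listed at 0. PDGFRA was listed at 0 and PDGFRB stood at 0.728 and 0.649 RPKM. Among FGF receptors, FGFR4 was measured at 3.10 and 3.05 RPKM and the decoy-like FGFRL1 at 4.68 and 4.06, with FGFR1 at 0.826 and 0.660. TEK and TIE1, the angiopoietin receptor kinases, were listed at 0. CD47, a thrombospondin receptor, stood at 4.23 and 3.79 RPKM (ratio 0.897, 0.810 to 0.993), and CD36 at 0.12 and 0.10 RPKM.

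Around the members, 98 related genes on 10 pathway lists were found in the table, of which 42 were measured. None of the 42 was 2-fold apart or reached a log2 difference of 0.25 in either direction, against 8.89% of measured genes at that size. Above 0 lay 13 of them (29.8% of measured genes), 25 lay above the median of all genes, and their own median was -0.03. The authors' deposited q lay below 0.05 for 3 of them, 2 higher in the clusterin library (1.99% of measured genes) and 1 lower (14.6%). Under the measured level by their means, ANGPTL6 and PTN were lower in the clusterin library by more than 0.25. ANGPTL6 stood at 1.01 and 0.536 RPKM in control and clusterin, from 72 and 33 reads (log2 -0.39). PTN stood at 1.08 and 0.683 RPKM, from 64 and 35 reads (log2 -0.31).

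Of 9 genes for the processing of VEGFC and endothelins, 5 were measured, and ADAMTS3 and CCBE1, the protease and cofactor that activate VEGFC, PCSK5 and the endothelin-degrading MME were listed at 0 in both libraries. FURIN, the proprotein convertase that cuts endothelin and VEGFC precursors, stood at 12.7 and 12.4 RPKM, PCSK7 at 10.8 and 10.99 and PCSK6 at 2.12 and 1.91. The endothelin converting enzyme ECE1 was at 5.61 and 5.59 RPKM and ECE2 at 4.36 and 4.86, a ratio of 1.11 (1.003 to 1.24). These 5 genes had a median log2 difference of -0.0037, with 2 of them above 0 (29.8% of measured genes) and 4 over the all-gene median.

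Carriers of FGF differed among themselves. FGFBP1, an FGF binding protein, stood at 4.53 and 3.88 RPKM (log2 -0.18), while the heparan sulphate proteoglycan SDC1 stood at 24.8 and 26.6 (log2 0.10; ratio 1.07, 1.02 to 1.13). Of 6 measured genes on that list, 5 lay below 0 (70.2% of all measured genes) and 2 above the median of all genes. The median of that list was -0.11. PDGFB, the B chain partner of PDGFA, stood at 2.75 RPKM without clusterin and 3.21 RPKM with it, a ratio of 1.17 (1.01 to 1.36), so its ratio equalled that of PDGFA at this rounding. PDGFC was at 0.0341 and 0.128 RPKM and PDGFD was listed at 0. ANGPT1, the agonist of the TEK receptor, was the 1 measured gene of the angiopoietin list, at 1.33 and 1.51 RPKM (log2 0.10).

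Angiogenesis inhibitors other than THBS1 mostly lay near the general offset. Of 5 measured genes, 4 lay below 0 (70.2% of all measured genes) and 2 above the median of all genes. The list median was -0.09. THBS3 stood at 2.52 and 2.07 RPKM (ratio 0.824, 0.692 to 0.979), COL18A1, whose collagen yields endostatin, at 2.24 and 2.14, and TIMP3, a metalloproteinase inhibitor that also blocks VEGF at its receptor, at 5.74 and 6.43 (ratio 1.12, 1.03 to 1.21). SERPINF1, the gene of the RPE inhibitor PEDF, was at 0.870 and 0.826 RPKM, under the measured level. Among other secreted angiogenic factors, 7 were measured, of which 4 lay above 0, against 29.8% of all measured genes. Of these 7, 6 exceeded the all-gene median, and the list median was 0.02. ANG, angiogenin, stood at 3.65 and 4.21 RPKM (log2 0.16), EREG at 0.07, CYR61 at -0.02 and LIF at -0.08.

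Among genes of hypoxia factors and of the prolyl hydroxylases and other regulators listed with them, RNA levels differed little. HIF1A stood at 62.4 and 61.1 RPKM in control and clusterin, and EPAS1 at 5.91 and 5.78. Of 9 measured genes on this list, 7 lay below 0 (70.2% of all measured genes), yet 8 lay above the median of all genes. The list median was -0.03. The prolyl hydroxylase EGLN3, itself hypoxia-induced, had the highest log2 difference, 0.16, at 5.50 and 6.23 RPKM (ratio 1.13, 1.01 to 1.28), EGLN2 was at 0.02, EGLN1 at -0.05 and the HIF partner ARNT had the lowest, -0.09. Among PPAR factors and their lipid targets, which regulate ANGPTL4 in other tissues, 5 of 6 measured genes lay below 0 (70.2% of measured genes). Of these 6, 1 lay above the median of all genes, and the list median was -0.08, against -0.06 over all measured genes. PDK4, a PPAR target, stood at 18.3 RPKM without clusterin and 16.4 RPKM with it (ratio 0.894, 0.843 to 0.948). PPARD was at log2 -0.14, RXRA at -0.06 and PPARA at 0.05. Whether hypoxia or PPAR factors bear on the levels of VEGFA or ANGPTL4 in these cells was not tested.

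**Figure D4:**
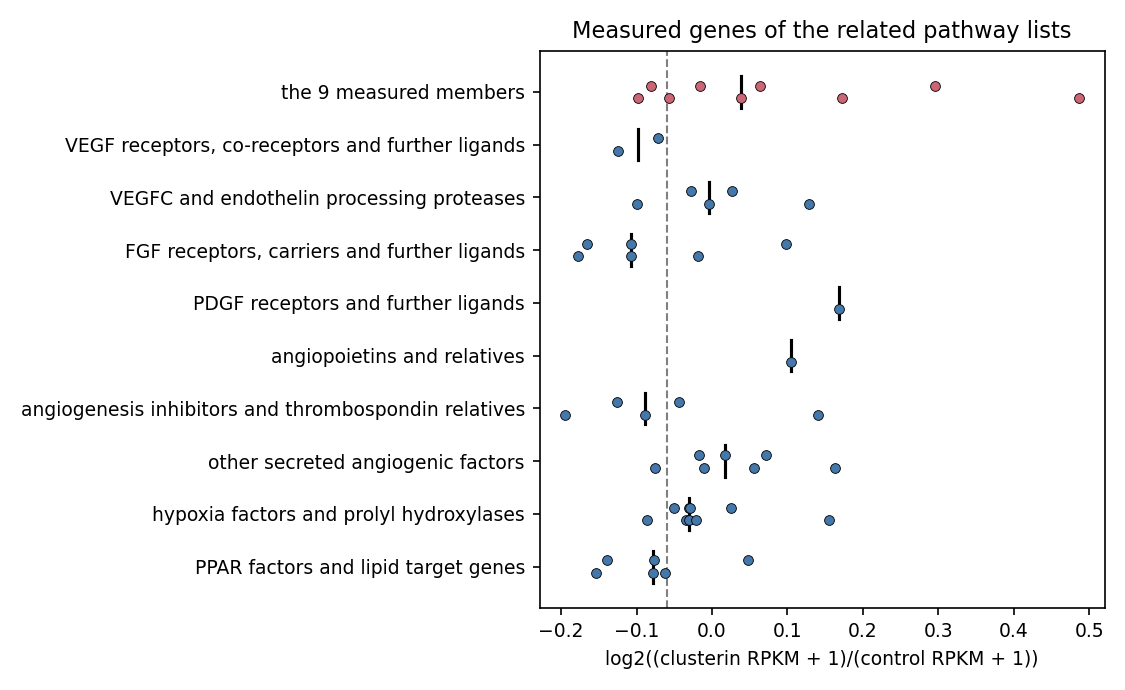
Log2 difference of each measured gene (points) in the members (red) and in 9 related pathway lists with measured genes (blue); short bars are medians and the dashed line is the median of all measured genes, -0.06. EDN2 at 0.49 and ANGPTL4 at 0.30 lie to the right of every point of the related lists, whose points stay within 0.25 of 0.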

How the data were processed

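Libraries were made from poly(A) RNA of D407 cells, broken into short fragments and primed with random hexamers, per the labels' protocols. Bowtie, TopHat and Cuffdiff with build hg19 are named in the submitters' processing notes; their versions are not given in the sources used here. Positions of members in the table match RefSeq positions on GRCh38, on which coordinates are given, within 177 bases with 2 exceptions. The EDN1 start lay 30698 bases from the RefSeq start, and the THBS1 end lay 1999 bases from the RefSeq end. EDN1 runs from 12261214 to 12297194 in the table, so the EDN1 promoter stretch shown lies inside that span. The authors deposited 1 level per gene and library, read here as RPKM because 484 of 523 small RNA genes gave whole reads (within 0.02) at 1 total per library; whole numbers cannot tell reads from read pairs. The authors also deposited, per gene, a p-value with its q-value and the log2 of the level ratio. The p-value and q-value are 0 where both levels are 0 and were then not used.

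Reads were recovered for 20524 of 20642 genes above 0 (99.4%) as the transcript length, from 18 to 20000 bases, at which both levels were whole and gave the deposited p-value (within 2%, Audic-Claverie form, read from the values). For 7 members 1 length matched; for FGF2, PGF and THBS1 several did, and the best was used. The steps were tested on simulated data. Intervals at 95% are exact Clopper-Pearson (shares of reads) or Poisson (levels), and conditional exact for ratios of 2 genes; the sources name no molecular identifiers, so reads may repeat molecules and the intervals cover counting error only. With 1 library per group no test was made. A gene was measured from a mean of 1 RPKM, and 1 RPKM was added to levels before the log2. Python 3.11.15, scipy 1.17.1 and pandas 2.3.3 were used.

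Members and lists were chosen with earlier results of these data known. Named beside the 10 members were, in each list, the 2 highest and 2 lowest measured genes (all where there were 4 or fewer); receptors, other list genes and overlapping genes were added after their values were seen.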

Additional observations from a re-analysis of the deposited data

How the results depend on the processing

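No paired analysis was possible because each group has 1 library, and no library could be left out. Of 75 values under alternatives, 71 moved by less than the counting interval, or by less than 1.5 times for counts, and 4 moved more. The count of members higher by 0.25 on the log2 scale fell from 2 to 1 with a pseudocount of 5 RPKM, and to 1 with a mean of at least 5 RPKM, which leaves 4 members and drops EDN2 by its level. With the control rescaled to a median RPKM ratio of 1, which moves the median of all genes from -0.06 to 0, the RPKM ratio of VEGFA was 0.979 and its log2 difference -0.03. No member whose counting interval left out 1 (EDN2, ANGPTL4 and VEGFA) changed direction under any alternative tried. The share of all measured genes above 0 was 29.8% as deposited, 50% with the control rescaled and 48.5% after quantile normalization. PGF, from 15 reads in all, and EDN1, from 174, are limited by depth.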
